A study of Artemisia annua with 12 samples.

Results

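In leaves of Artemisia annua under UV-B lamps, 113 genes stood on one side of their starting level after 2 h and on the other side after 4 and 6 h. They were chosen by their measured values among the 63226 gene identifiers of the deposited table, of which 21644 lay above the minimum levels of the rule. Of the 113 genes, 54 were up at 2 h and down later, and 59 were down at 2 h and up later. With L as the mean of log2(value + 1) over the libraries of a harvest, the first course required L at 2 h to exceed L at 0 h by 0.75 or more and L at 4 and 6 h to lie 0.5 or more below it. The second course required a level 0.75 or more below 0 h at 2 h and 0.5 or more above 0 h at both later harvests. Both courses further required L of at least 1 at 0 h and a mean value above 0.1 at every harvest. All changes against 0 h, and those between 2 h and the later harvests, were therefore fixed by the choice and are given as a description, with no test.

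The libraries came from wild-type seedlings of the high-artemisinin cultivar Huhao 1, 6 weeks old and raised in a greenhouse. The most recently expanded leaves were taken after 0, 2, 4 and 6 h of supplementary narrowband UV-B, with 3 libraries at each of the 4 harvests and leaves of 3 seedlings mixed in each library, 12 libraries in all. The p-values set a difference against the spread between libraries of the same harvest, pooled over all 4 harvests and moderated across genes. No untreated seedlings harvested at the later hours were analysed here, so time under the lamps and time of day cannot be told apart.

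Plants perceive UV-B mainly through the photoreceptor UVR8, which on absorbing UV-B binds COP1 and thereby lets transcription factors such as HY5 act, as worked out in Arabidopsis thaliana. Genes for flavonoid sunscreens and DNA repair are known targets of this pathway. Many light and stress responses of leaves begin with a short burst of transcription, after which feedback repressors lower it again, and transcripts under the circadian clock move within hours without any treatment. Artemisia leaves also bear glandular trichomes, the site of artemisinin synthesis. The identifiers come without gene names, so none of the 113 genes can be assigned a role, and the labelled tissue could not be checked by marker genes.

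The values are a normalised signal whose unit the table does not name, and their sums per library lay between 851404 and 868133. Read depth is unknown. Libraries of 1 harvest correlated at r = 0.975 to 0.981 across the 25841 genes that reached a value of 1 in 3 or more libraries, called the tested genes below; all 113 members were among them. The tested genes as a whole were shifted after exposure, with a median log2 change relative to 0 h of 0.13 after 2 h, 0.21 after 4 h and 0.20 after 6 h, and the members' changes are to be read relative to this shift.

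The 54 genes of the first course were mostly of low to moderate level. Their mean values at 0 h ran from 1.11 to 1513 with a median of 5.87, beside a median of 7.03 for the 21644 genes above the minimum levels. At 2 h the median of the members was 16.3, at 4 h it was 1.71 and at 6 h it was 1.86. Many of these transcripts were close to 0 at the end, as 18 of the 54 genes had a mean value under 1 at 4 h and 23 at 6 h. On the log2(value + 1) scale, the median change against 0 h was 0.99 after 2 h, -0.99 after 4 h and -0.99 after 6 h, with ranges of 0.75 to 4.06, -3.11 to -0.53 and -3.42 to -0.50. From 2 to 6 h the median difference was -2.09. In 12 of the 54 genes all 3 changes against 0 h were at least 1 on this scale. The same held, in either direction, in 1142 of the 21644 genes above the minimum levels. Since the rule set minimum changes, nothing is read from these counts.

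The 2 genes named in each course are those whose smallest change against 0 h was largest. CTI12_AA298460, the first of the up-then-down course, was measured at 4.56, 4.97 and 4.44 at 0 h and at 15.92, 14.92 and 16.78 at 2 h. At 4 h its values were 0.81, 0.55 and 0.85, and at 6 h they were 0.65, 0.49 and 0.31. The 2 h libraries were all high and the 4 and 6 h libraries all low, with no overlap with 0 h on either side. The mean value was 3.41-fold higher at 2 h than at 0 h and 9.63-fold lower at 6 h than at 0 h, or 32.8-fold lower at 6 h than at 2 h.

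CTI12_AA377540 stood at 13.89, 14.95 and 14.14 at 0 h, at 42.58, 41.86 and 43.21 at 2 h, at 1.79, 1.00 and 1.45 at 4 h and at 0.57, 0.83 and 0.71 at 6 h. Again no library at 2, 4 or 6 h overlapped those at 0 h, and every 6 h library lay below every 4 h library. The peak at 2 h was 2.97-fold above 0 h in mean value, and the level at 6 h was 20.4-fold below 0 h and 60.5-fold below the peak.

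**Figure D1:**
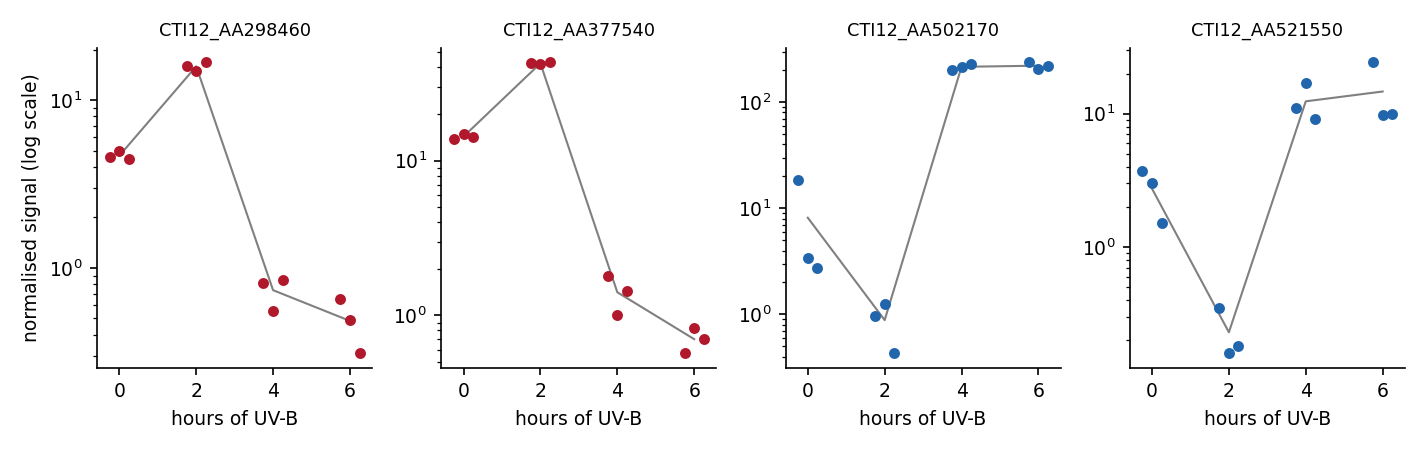
Normalised signal (log axis) against hours of UV-B for the 4 named genes, 1 point per library (n = 3 at each harvest, spread sideways for legibility) and a grey line through the harvest means. CTI12_AA298460 and CTI12_AA377540 (red) peak at 2 h and end below 1, whereas CTI12_AA502170 and CTI12_AA521550 (blue) are lowest at 2 h and end above every 0 h library.

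Other members of the first course, described without identifiers, differed in which of the swings was the larger. The most abundant one was measured at 1522, 1519 and 1497 at 0 h, at 2782, 2923 and 3046 at 2 h, at 294.3, 297.0 and 282.5 at 4 h and at 230.5, 209.6 and 209.2 at 6 h. Its peak was thus 1.93-fold above 0 h, and its level at 6 h was 6.99-fold below 0 h, in mean value. A gene at 162.3 ± 6.96 (SD, n = 3) at 0 h had the largest change at 6 h on the log2(value + 1) scale, -3.42, with 424.7 ± 13.7 at 2 h, 17.9 ± 1.28 at 4 h and 14.3 ± 0.858 at 6 h. The opposite balance was seen in a gene with values of 12.06, 14.34 and 16.55 at 0 h and 263.3, 252.3 and 244.3 at 2 h, a 17.7-fold higher mean, which then lay at 4.85, 4.34 and 6.45 at 4 h and 7.82, 6.52 and 7.17 at 6 h. All its 4 and 6 h libraries were below its 0 h libraries, by 2.00-fold in mean value at 6 h. In 25 of the 54 genes the change at 6 h was larger than that at 2 h on the log2(value + 1) scale, beside 11591 of the 21644 genes above the minimum levels. This scale understates changes at low values, so the count depends on it.

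The 59 genes of the second course had mean values of 1.14 to 83.99 at 0 h, with a median of 4.88. The median stood at 1.46 after 2 h, 12.4 after 4 h and 11.3 after 6 h, and 23 of the 59 genes had a mean value under 1 at 2 h. The median change against 0 h on the log2(value + 1) scale was -1.01 after 2 h, 0.91 after 4 h and 0.92 after 6 h, with ranges of -3.55 to -0.76, 0.54 to 4.98 and 0.51 to 5.02. The median difference from 2 to 6 h was 1.98. All 3 changes were at least 1 in 11 of the 59 genes, beside 1142 of the 21644 genes above the minimum levels. The change at 6 h was larger than that at 2 h in 26 of the 59, beside 11591 of the 21644. Since the rule set minimum changes, nothing is read from the members' counts. All these counts use this scale, which understates changes at low values.

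CTI12_AA502170 had the widest course of all 113 genes. Its values were 18.29, 3.43 and 2.75 at 0 h and 0.96, 1.26 and 0.43 at 2 h, followed by 202.15, 214.71 and 229.99 at 4 h and 237.81, 204.46 and 220.53 at 6 h. The 0 h libraries were uneven, with replicate 1 far above the other two, but each was above every 2 h library and below every later one. In mean value the gene was 9.23-fold lower at 2 h than at 0 h, 27.1-fold higher at 6 h than at 0 h and 250.1-fold higher at 6 h than at 2 h. The folds against 0 h rest on replicate 1 of that harvest: without it the 0 h mean was 3.09, and the gene was 3.50-fold lower at 2 h and 71.5-fold higher at 6 h, and it still met the rule.

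CTI12_AA521550, the other named gene of this course, was listed at 3.72, 3.00 and 1.51 at 0 h, at 0.35, 0.16 and 0.18 at 2 h, at 10.98, 17.07 and 9.10 at 4 h and at 24.29, 9.84 and 9.89 at 6 h. The harvests at 0, 2 and 4 h did not overlap, while 1 library at 6 h stood above the other libraries of that harvest. The mean value was 11.9-fold lower at 2 h and 5.35-fold higher at 6 h than at 0 h. With a pseudocount of 5 in place of 1, this gene no longer met the rule.

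The gene with the highest values in the second course ran from 42.96, 42.28 and 58.73 at 0 h, through 21.52, 26.75 and 21.17 at 2 h, to 599.7, 614.5 and 595.4 at 4 h and 687.5, 660.2 and 650.4 at 6 h. Its 6 h mean was 13.9-fold above that at 0 h, and the harvests at 0, 2 and 4 h did not overlap. A gene with tight replicates was measured at 62.51, 62.60 and 62.47 at 0 h, 28.75, 23.75 and 23.84 at 2 h, 188.6, 191.6 and 190.3 at 4 h and 173.7, 187.3 and 171.2 at 6 h. The deepest dip was that of a gene at 14.06, 13.83 and 13.40 at 0 h and 0.05, 0.41 and 0.34 at 2 h, a mean 51.6-fold lower, which stood at 26.8 ± 0.859 (SD, n = 3) at 4 h and 25.2 ± 1.32 at 6 h. At values under 1 the size of such a fold is uncertain, as read depth is unknown.

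**Figure D2:**
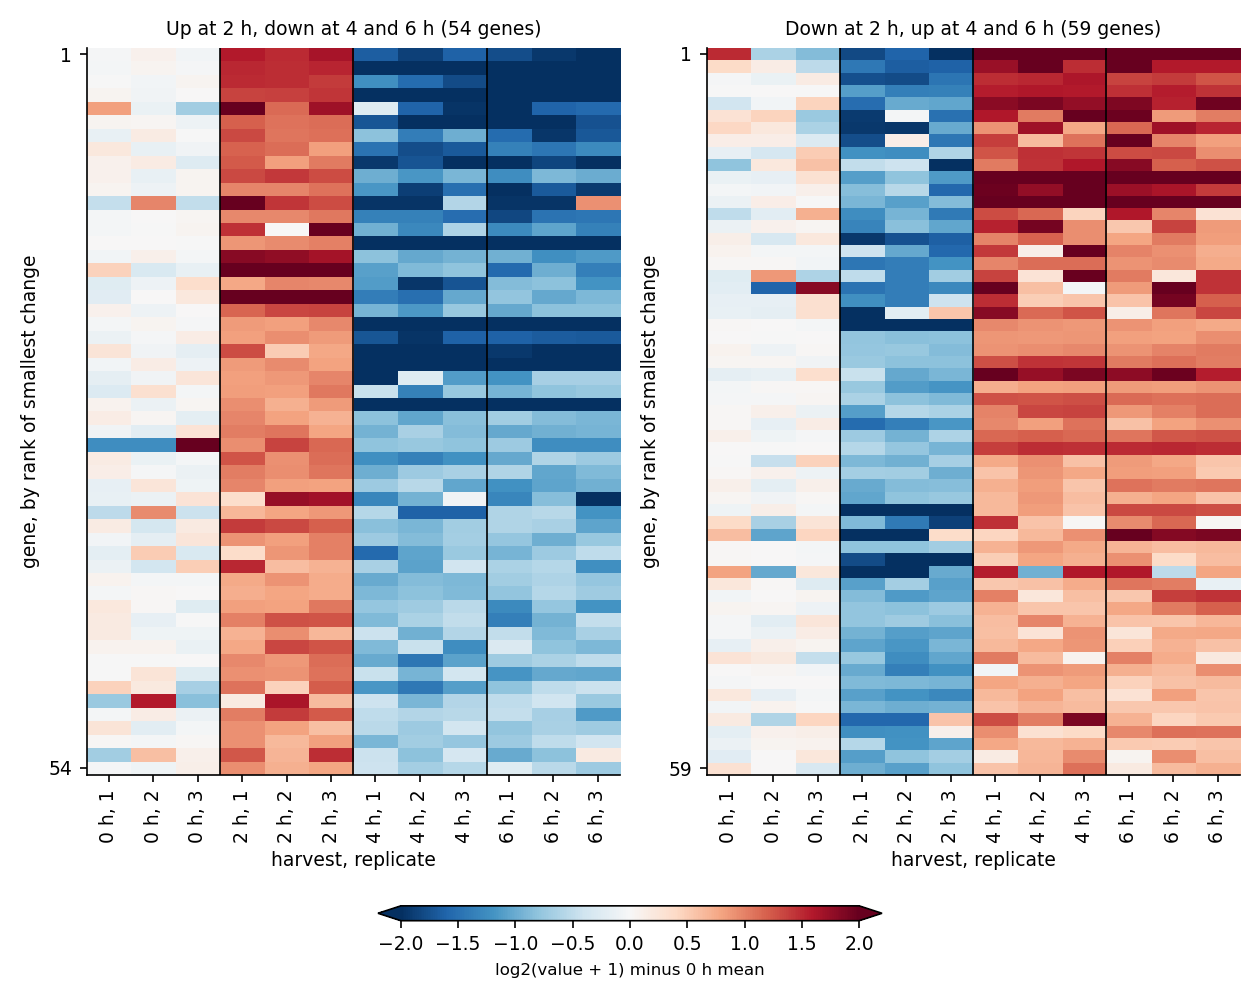
Difference of log2(value + 1) from the gene's own 0 h mean, in colour, for each member (rows, ordered by the smallest of the 3 changes against 0 h) in each of the 12 libraries (columns), with colours saturated beyond 2 either way. The 2 h columns are mostly of opposite colour to the 4 and 6 h columns, as the rule requires, and some rows hold a single library that departs from the other libraries of its harvest.

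The values of single libraries are given as a description, since the means of these same libraries chose the genes. Among the 54 up-then-down genes, the median difference from the gene's 0 h mean came to 0.98, 0.94 and 1.07 in the 3 libraries at 2 h, -0.97, -1.16 and -0.93 at 4 h and -1.10, -0.96 and -1.09 at 6 h. Among the 59 down-then-up genes it came to -1.05, -1.09 and -1.01 at 2 h, 1.00, 0.89 and 0.92 at 4 h and 0.92, 1.01 and 0.93 at 6 h. The 3 medians of a harvest differed by at most 0.23, while single genes had outlying libraries.

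Every 2 h library was above every 0 h library in 49 of the 54 genes of the first course (39.3% of all tested genes), every 4 h library was below in 49 (20.5%) and every 6 h library was below in 49 (20.8%). All of these held at once in 44 genes, against 461 of all tested genes, or 1.78%. In the second course, every 2 h library was below every 0 h library in 49 of 59 genes (23% of all tested genes), every 4 h library was above in 50 (45.9%) and every 6 h library in 49 (44.6%). The full order held in 42 genes, and in 667 of all tested genes, or 2.58%. Since the rule used these contrasts, nothing is read from the members' shares.

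The remaining 10 genes of the first course and 17 of the second had at least 1 library out of order. In 1 up-then-down gene the 0 h values were 0.00, 0.00 and 12.16, and the values at 2 h were 3.48, 5.01 and 4.25, so that the means at 0 and 2 h, 4.05 and 4.25, differed by 1.05-fold only. A down-then-up gene had 0.00, 13.17 and 23.08 at 2 h, overlapping its 13.91, 13.56 and 19.62 at 0 h. In another, 2 h values of 1.01, 0.71 and 23.84 overlapped the 8.29 to 28.35 found at 0 h. These 3 genes met the rule in 8, 11 and 11 of the 12 cases in which 1 library was left out. The median SD of log2(value + 1) between libraries of a harvest was 0.165 at 0 h in the first course and 0.162 in the second, beside 0.106 for the genes above the minimum levels.

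To read the courses in libraries that had no part in the choice of genes, the rule was applied to 2 libraries of each harvest, and the genes so chosen were examined in the library of each harvest that had been left out. This check was added after the values were seen, and the rule itself was set with earlier results of these data known. All signs of a gene were read against the same 0 h library. The share of all tested genes includes many genes with small changes, so the shares are given as a description. Without replicate 1, 60 up-then-down genes were chosen, and 50 of them (83.3%) had the same order of signs in the replicate 1 libraries, beside 8.05% of all tested genes. For replicate 2 the numbers were 50 of 53 genes (94.3%, beside 6.75%) and for replicate 3 they were 49 of 56 (87.5%, beside 6.75%). Of down-then-up genes, 53 of 66 (80.3%) kept their signs in replicate 1 (10.7% of all tested genes), 50 of 57 (87.7%) in replicate 2 (12.8%) and 49 of 58 (84.5%) in replicate 3 (12.3%).

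The size of the changes was also close to that in the libraries used for the choice. For the first course the median log2 change in the left-out libraries was 0.95, 0.96 and 1.02 at 2 h and -0.94, -0.89 and -1.03 at 6 h. In the libraries used for the choice it was 0.98, 1.01 and 0.96 at 2 h and -0.93, -1.08 and -0.95 at 6 h. For the second course the left-out medians were -0.88, -0.85 and -0.92 at 2 h, where the choice had given -0.996, -0.95 and -0.96, and 0.88, 1.17 and 0.91 at 6 h, where it had given 0.87, 0.89 and 0.96. The full thresholds of the rule were met in the left-out libraries by 33 of 60, 28 of 53 and 32 of 56 genes of the first course and by 25 of 66, 24 of 57 and 25 of 58 of the second.

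**Figure D3:**
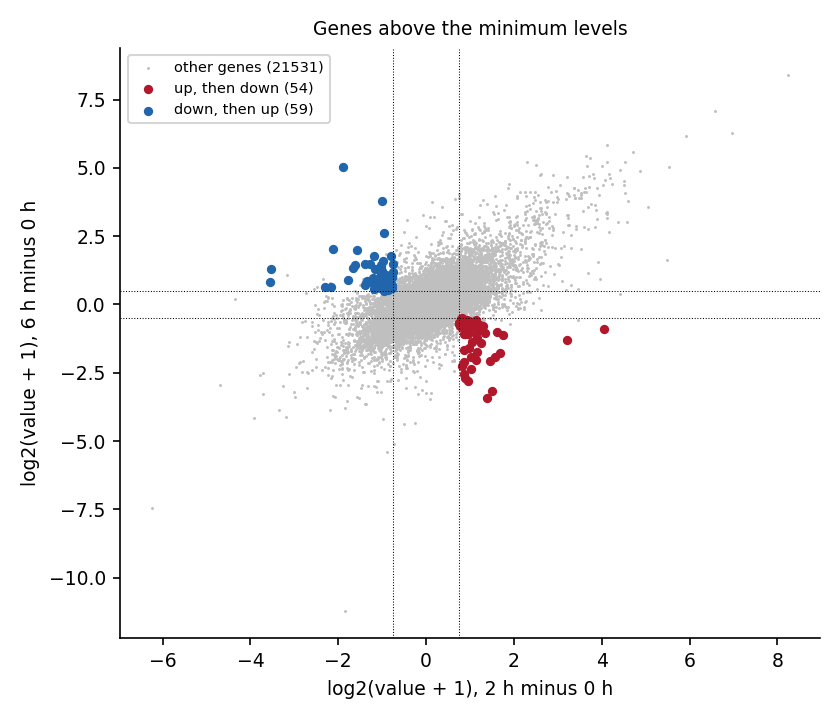
Change of log2(value + 1) at 6 h against that at 2 h, both relative to 0 h, for the 21644 genes above the minimum levels, with the thresholds of the rule dotted. Most genes lie along a rising diagonal, both axes sharing the 0 h libraries, and the 54 up-then-down genes (red) and 59 down-then-up genes (blue) occupy the other corners by construction.

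The rule cuts a continuous range of values. The up-then-down gene nearest to the limit had changes of 0.751, -0.87 and -0.69 at 2, 4 and 6 h, while the nearest gene left out had 1.06, -0.49 and -0.63. For the down-then-up course these were -0.758, 1.44 and 1.49 inside and -0.748, 0.59 and 0.53 outside. Within 0.1 of the limit lay 15 members and 38 other genes in the first course, and 25 members and 43 other genes in the second.

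Smaller reversals were more frequent than the 113 genes. Of the 461 tested genes with every library in the up-then-down order, 417 were not members: 348 of these had too small a change at 2 h, 256 too small a change at 4 or 6 h and 59 too low a level, reasons that overlap. Of the 667 genes in the down-then-up order, 625 were not members, of which 554 missed the threshold at 2 h, 448 one of the later thresholds and 56 a minimum level, again with overlap. The members in full order made up 9.54% of the first list and 6.30% of the second. Which order was the more frequent depended on the scaling: once the libraries were rescaled by their median ratios, 631 genes had the up-then-down order and 470 the down-then-up order, and 315 and 309 genes had it under both scalings.

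Scaling also moved the members. All 54 and 59 genes kept the signs of their 3 changes after median-ratio scaling. The scaling factors of the libraries ran from 0.895 to 1.09. Factors this close together cannot reverse changes as large as the rule required, so the kept signs were fixed by the choice. After this scaling 38 of the 54 and 34 of the 59 still met the thresholds, and 15 and 17 other genes then did. The median changes of the first course became 0.85 at 2 h, -1.15 at 4 h and -1.13 at 6 h, and those of the second -1.12, 0.68 and 0.75. Each library was also left out in turn: 36 of the 54 and 28 of the 59 genes met the rule in every such case. Some genes met it without each library and after scaling, and had their libraries in full order under both scalings. They numbered 28 in the first course and 17 in the second. Full order under both scalings, with no further condition, held in 315 and 309 of all tested genes. These cases reuse the libraries that chose the genes, so the counts are a description and lend the members no separate support.

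**Figure D4:**
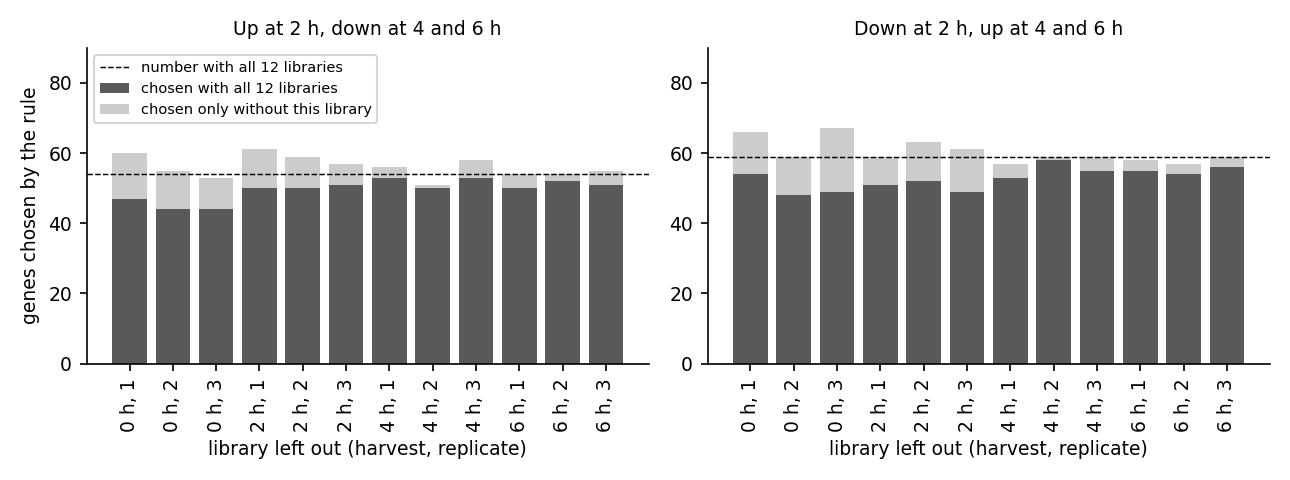
Number of genes chosen by the rule when the library on the horizontal axis is left out; dark bars are genes also chosen with all 12 libraries, light bars are added genes, and the dashed line is the number with all 12. Totals range from 51 to 61 in the first course and from 57 to 67 in the second, and leaving out a 0 h library loses 5 to 11 genes and adds 9 to 18 in either course.

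The step from 4 to 6 h was the one difference between harvests on which the rule set no direct bound, and it asked whether the members were still moving. The rule did require both harvests to lie past the same limit, so genes that crossed the limit between them were left out. The shares of members called are therefore not free of the choice. The step was tested with limma over all 25841 genes, at a Benjamini-Hochberg adjusted p under 0.05. In the first course 5 of the 54 genes were lower at 6 h than at 4 h, or 9.26%, beside 5.47% of all tested genes, and 2 were higher, beside 4.44%. In the second course 3 of the 59 genes were higher at 6 h and 2 lower. These counts are small and close to the share of all genes, and nothing particular to the members is read from them. The median difference was -0.02 in both courses and -0.02 in all tested genes.

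Among the genes that changed in this step, the most abundant member of the first course fell further, from 291.3 ± 7.69 (SD, n = 3) to 216.4 ± 12.2 (log2 difference -0.43 ± 0.0418 SE, limma adjusted p = 7.56e-05). CTI12_AA377540 also fell (log2 difference -0.49 ± 0.11 SE, limma adjusted p = 0.0161), a call that was lost in 5 of the 13 alternatives run, whose adjusted p ran from 0.00231 to 0.12. The opposite was found for an up-then-down gene with 6.79, 4.77 and 6.49 at 4 h and 8.64, 9.12 and 10.03 at 6 h, which had started at 14.7 at 0 h (log2 difference 0.56 ± 0.109 SE, limma adjusted p = 0.00792). In the second course a gene listed at 13.23, 15.41 and 13.79 at 0 h and at 0.57, 0.21 and 0.16 at 2 h rose from 22.79, 26.09 and 21.41 at 4 h to 36.87, 36.58 and 35.92 at 6 h (log2 difference 0.62 ± 0.113 SE, limma adjusted p = 0.00528). This call was lost with a pseudocount of 0.1, where no down-then-up gene was called higher at 6 h. Most up-then-down calls were lost in a model of the 4 and 6 h libraries alone. There 1 gene of that course was called lower at 6 h and 1 higher, beside 5 and 2 with all 12 libraries. The differences of CTI12_AA298460, CTI12_AA502170 and CTI12_AA521550 were -0.23 ± 0.109, 0.03 ± 0.501 and 0.15 ± 0.352 (SE) on the log2 scale, with limma adjusted p = 0.236, 0.99 and 0.861.

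**Figure D5:**
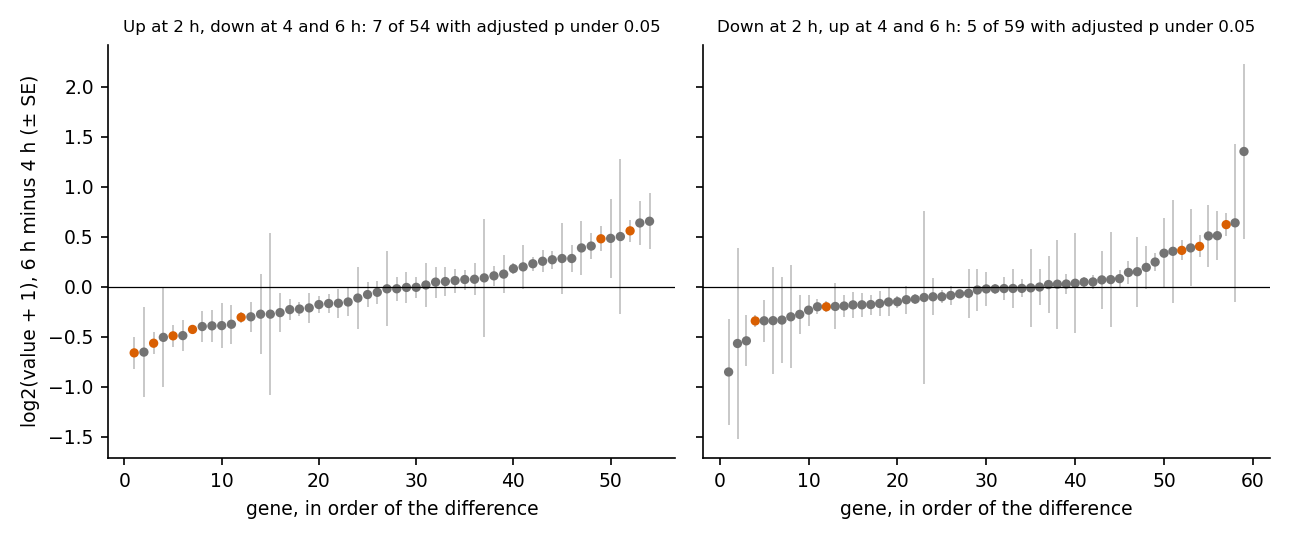
Difference of log2(value + 1) between 6 and 4 h, with its limma standard error, for each member in order of the difference; orange points have a limma adjusted p under 0.05. They number 7 of 54 in the first course, 2 of them above 0, and 5 of 59 in the second, 3 of them above 0.

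Genes that peaked or dipped at 2 h and then returned to within 0.25 of their 0 h level were the nearest other courses. They numbered 256 and 197, with median 0 h values of 8.23 and 8.89 beside 5.87 and 4.88 in the reversing courses. The median change at 2 h was 0.99 in the 256 genes, as in the up-then-down course, and -0.99 in the 197 genes, beside -1.01 in the down-then-up course. The same cut of 0.75 at 2 h chose all these courses. From 4 to 6 h, 6 of the 256 genes were higher and 14 lower, and 4 of the 197 were higher and 8 lower, by the same limma test. The band of 0.25 at both later harvests limited such steps in advance. The shares called were 7.81% and 6.09%, beside 9.91% of all tested genes. Whether these shares differ from those of the members was not tested.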

How the data were processed

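RNA of 12 leaf libraries was measured by sequencing. The authors deposited 1 table of normalised expression signal per gene; its header names no unit, and the values resemble TPM or FPKM. Salmon, DESeq and HISAT2 2.1.0 appear in the submitters' processing notes, with no role stated for any of them. As to the genome build, it is not stated in any source consulted. Columns carry the sample titles, and 0 columns belonged to other samples. Read depth is unknown, so no count test was run and no counting interval is given.

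Values were taken as log2(value + 1), which understates changes of low genes; folds of single genes are ratios of mean values. The members and lists were chosen with earlier results of these data known. The 2 genes named per course are those with the largest smallest change against 0 h. The step from 4 to 6 h was tested with limma 3.58.1 (R 4.3.3; trend, robust) on all 12 libraries in 4 groups, for genes that reached a value of 1 in 3 or more libraries, with Benjamini-Hochberg adjustment over all 25841 genes; the procedure was tested on simulated data. Same-numbered libraries did not deviate together (r = -0.0247 to 0.0429), so numbers were not taken as pairs. Alternatives were other pseudocounts, filters, scaling, thresholds and models, a replicate block, and leaving out each library (for the step from 4 to 6 h, each of the 6 libraries of these harvests); use of the median of 3 libraries and the reading in left-out libraries were added after the data were seen. Gene lists of pathways and cell types could not be applied without gene names.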

Additional observations from a re-analysis of the deposited data

Results flagged for a closer look

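The levels at 4 and 6 h differed, by the limma test of that difference itself, for 7 genes of the up-then-down course and 5 of the down-then-up course. These are 13% and 8.47% of the members, near the 9.91% of all tested genes. The 7 comprised 5 genes that fell further and 2 that rose back towards the 0 h level, and the 5 comprised 3 that rose further and 2 that fell back. No cause was tested.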

How the results depend on the processing

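The number of members depended most on the pseudocount: with 0.1 the courses held 92 up-then-down and 130 down-then-up genes, and with 5 they held 20 and 14, all of them among the 54 and 59. Without the minimum levels they held 89 and 78, with a threshold of 1 at 2 h 26 and 33, and with 0.75 at 4 and 6 h 37 and 33. The median of 3 libraries gave 60 and 61 genes, and leaving out 1 library gave 51 to 61 and 57 to 67. For the step from 4 to 6 h, only the 6 libraries of these harvests were left out in turn. The number of up-then-down genes called in it was 7; it was 4 with a pseudocount of 5, 2 in a model of the 4 and 6 h libraries alone, and 5 to 8 without 1 of these libraries. The number of down-then-up genes called was 5; it was 2 with a pseudocount of 0.1, 2 without the filter and 2 to 4 without 1 of these libraries. With a replicate block 6 and 2 genes were called; the replicate numbers did not pair the libraries, and 4 of 12 libraries correlated best with their own number. Over all tested genes 2561 changed in this step, 2203 with the block and 1726 to 1926 without 1 of the 6 libraries. How precise values near or under 1 are cannot be said at an unknown depth.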

Other observations

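In the order of the identifiers, 4 pairs of neighbouring members lay within 10 entries of each other, 3 of them with opposite courses; what this order means on the genome is not given by the table, and the pairs were noticed after the values were seen. The closest pair was directly adjacent. One gene of it had mean values of 7.83, 0.957, 15.9 and 13.2 at 0, 2, 4 and 6 h, and the next had 1.57, 4.43, 0.683 and 0.757. At 0 h the first was listed at 12.55, 2.82 and 8.12 and the second at 0.48, 2.63 and 1.59, so the library with the highest value of one had the lowest of the other. At 6 h replicate 1 again had the highest value of the first and the lowest of the second. At 2 and 4 h, however, replicate 3 was the highest in both genes. Both had libraries out of order and met the rule in 7 of the 12 cases in which 1 library was left out. Among 3 further members within 10 entries, the outer ones had the up-then-down course, with means of 4.98 and 4.82 at 0 h and 17.2 and 9.34 at 2 h, and the one between them had the down-then-up course, with 4.50 at 0 h, 1.27 at 2 h and 9.67 at 6 h. Whether such pairs are more frequent than among other genes was not tested.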
